A study of Mus musculus with 2 samples.

Results

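CD8 T cells that carried transcripts of the Ly49 receptors were examined in 1 pool of tumor-infiltrating T cells, and set against the pool's other CD8 T cells. A cell was selected on its unique molecular identifiers (UMIs, counts of single captured transcripts). It needed more UMIs of *Cd8a* and *Cd8b1* together than of *Cd4* and *Foxp3*, at least 1 UMI of *Cd3d*, *Cd3e* or *Cd3g*, and at least 1 UMI of *Klra1*, *Klra6* or *Klra7*. By this rule 111 cells were selected (the Ly49 cells), out of 1236 CD8 T cells, 9078 quality-filtered barcodes and 14035 barcodes in the library. The other 1125 CD8 T cells met the first 2 conditions and had 0 Ly49 UMIs. Since the Ly49, CD8, CD4 and CD3 transcripts chose the cells, their values are given as a description.

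The T cells were sorted from tumors of the B16 melanoma line and of B16 cells that express IL-33 (B16–IL-33), grown intradermally in C57BL/6J mice and collected on day 9. No treatment was given, and cells of both kinds of tumor were tagged with hashtag antibodies and pooled. The pool was sequenced as 1 gene expression library by the 10x 5′ method, 1 hashtag library and 1 T cell receptor (TCR) library, with 11756 and 6665 gene expression barcodes found in the hashtag and TCR libraries. The pool is 1 sample, so no test across animals was possible. Every interval below is at 95%, covers counting error only, and treats the cells of 1 pool as they were counted.

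Ly49 receptors are C-type lectins, best known from natural killer cells, that bind MHC class I molecules. Most members of the family carry an inhibitory motif that recruits phosphatases such as SHP-1, and each cell expresses only some members. In mice, Ly49 molecules also mark some CD8 T cells of memory phenotype that have not met antigen (virtual memory cells), which depend on IL-15 through CD122 (*Il2rb*) and carry *Eomes*, and CD8 T cells with regulatory function, which express the transcription factor Helios (*Ikzf2*).

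The genes used for the selection lie within 374 kb of chromosome 6 (GRCm38, GENCODE vM21), on the minus strand. *Klra6*, which encodes Ly49F, spans 130013033 to 130026954, *Klra7*, which encodes Ly49G, spans 130218605 to 130233322, and *Klra1*, which encodes Ly49A, spans 130363917 to 130386874. The 250 bases before each gene's start, from RefSeq (GRCm38.p6), are shown as a description, and binding of factors to them was not tested. Capitals mark 6-letter words searched on both strands. CTTTGA is the core bound by TCF and LEF factors, and TGTGGT is a RUNX core.

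Klra6, chr6:130026955-130027204: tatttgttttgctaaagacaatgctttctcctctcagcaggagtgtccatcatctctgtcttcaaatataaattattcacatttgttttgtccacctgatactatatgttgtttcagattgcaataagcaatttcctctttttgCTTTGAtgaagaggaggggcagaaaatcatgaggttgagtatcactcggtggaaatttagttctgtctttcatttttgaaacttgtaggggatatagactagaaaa
Klra7, chr6:130233323-130233572: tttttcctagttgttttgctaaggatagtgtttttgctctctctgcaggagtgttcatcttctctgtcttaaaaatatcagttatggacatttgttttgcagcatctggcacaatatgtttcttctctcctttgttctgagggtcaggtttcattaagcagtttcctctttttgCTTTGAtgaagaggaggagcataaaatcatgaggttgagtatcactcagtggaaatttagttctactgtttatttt
Klra1, chr6:130386875-130387124: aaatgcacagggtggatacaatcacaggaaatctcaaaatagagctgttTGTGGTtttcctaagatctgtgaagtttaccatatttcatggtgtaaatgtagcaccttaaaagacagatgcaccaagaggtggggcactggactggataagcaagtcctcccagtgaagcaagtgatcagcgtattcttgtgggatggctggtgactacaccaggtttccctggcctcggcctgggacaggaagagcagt

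The windows of *Klra6* and *Klra7* held CTTTGA once each, 106 and 76 bases before the start, inside a stretch that both share, and were identical in 67.5% of aligned positions. That of *Klra1* held TGTGGT 201 bases before the start, no CTTTGA, and was identical to the others in 47.0% and 47.3%. Of 32851 mouse promoter windows of this length, 13.8% held CTTTGA and 14.0% held TGTGGT. The T-box core AGGTGT and the AP-1 word TGANTCA, present in 11.8% and 6.75% of windows, were in none of the 3.

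The Ly49 cells carried 340 Ly49 UMIs. *Klra7* was the most abundant, with 191 UMIs in 72 cells, against 75 UMIs of *Klra6* in 48 cells and 74 of *Klra1* in 38 cells. *Klra7* alone was found in 35 cells, *Klra1* alone in 18 and *Klra6* alone in 16. Another 37 cells had UMIs of exactly 2 of the genes, most often *Klra6* with *Klra7* (22 cells), and 5 cells had all 3. Over all CD8 T cells, a *Klra7* UMI was seen in 56.2% (41.2 to 70.5) of the 48 cells with *Klra6* and in 3.79% (2.78 to 5.04) of the 1188 without it. The same share was 39.5% (24 to 56.6) of the 38 cells with *Klra1*. Of the 90-base words of *Klra7* transcripts, 3.33% also occurred in the pseudogene *Klra13-ps*, and none of *Klra1* or *Klra6* occurred in another gene, so reads were unlikely to be split between the 3. Single members of the family that the rule did not use were sparse: *Klra3* (Ly49C) had 12 UMIs in Ly49 cells and 11 in the others, and *Klra9* had 7 and 19. All 8 such genes in the files summed to 21 of the 490304 UMIs in Ly49 cells and 41 of the 4525853 in the others. For this depth their sum was higher in Ly49 cells, at 42.8 against 9.06 UMIs per 1000000 mouse UMIs of the group. Of the 8 genes, 4 had 0 UMIs in Ly49 cells, and none reached the limit of 100 UMIs used further on. A few of the *Klra3* words, 2.83%, are shared with *Klra9* and *Klra10*, so these counts are uncertain.

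Of the Ly49 cells, 41 had 1 Ly49 UMI and stood just inside the limit, 37 had 2 or 3, 33 had at least 4, and the highest had 20. The share of CD8 T cells that were Ly49 cells was 8.98% (7.45 to 10.7). By the same UMI rule, 47 of 4518 CD4-type T cells (more *Cd4* and *Foxp3* than CD8 UMIs), or 1.04% (0.765 to 1.38), had a Ly49 UMI. Median depth was 4198 UMIs in Ly49 cells, 3367 in other CD8 T cells and 2724 in CD4-type cells. With every cell thinned to 1500 UMIs, 5.95% (4.65 to 7.49) of CD8 T cells and 0.737% (0.490 to 1.06) of CD4-type cells had a Ly49 UMI. Thinning left out 2 Ly49 cells, 92 other CD8 T cells and 720 CD4-type cells.

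Ly49 cells had the transcripts of alpha-beta T cells. A productive TCR beta chain was recovered in 79.3% (70.5 to 86.4) of them and in 71.6% (68.8 to 74.2) of the other CD8 T cells. *Trac*, the alpha constant gene, stood at 345 CPM (295 to 401; CPM is the gene's part of all mouse UMIs of the group, times 1000000) in Ly49 cells and 399 CPM (381 to 418) in the others. Of the markers of other cells, *Ncr1* (natural killer cells) had 0 UMIs in Ly49 cells and 1 in the others, *Zbtb16* (NKT cells) 1 and 5, and *Trdc* (the delta chain) 3 and 5. The groups held 490304 and 4525853 UMIs, so these counts are too few to compare levels. For this depth *Klrb1c*, the NK1.1 gene, was higher in Ly49 cells (14 and 23 UMIs). So were *Tcrg-C1* (15 and 7), *Tcrg-C2* (19 and 16) and *Tcrg-C4* (10 and 13), gamma constant genes, while *Gzma* of the NK list was lower. None of the CD8 T cells had the TRAV11 and TRAJ18 alpha chain of invariant NKT cells. The summed markers of NK cells stood at 1022 CPM in Ly49 cells and 1090 CPM in the others (1 of 6 at 0 in Ly49 cells). Most of the others' sum was *Gzma*, and without it the sums were 577 and 193 CPM, with *Fcer1g* and *Klre1* at least 2-fold higher in Ly49 cells. The markers of B cells stood at 196 and 124 (2 of 4 at 0), of myeloid cells at 159 and 281 (1 of 6 at 0), of dendritic cells at 4.08 and 23.2 (3 of 4 at 0) and of melanoma at 8.16 and 11.3 CPM (3 of 5 at 0). Of the 96 B cell marker UMIs in Ly49 cells, 87 were *Ighm*, spread over 58 cells with at most 4 UMIs each. The markers of gamma delta T cells stood at 135 and 15.2 CPM (2 of 7 at 0), of NKT cells at 2.04 and 1.33 CPM (2 of 3 at 0) and of CD4 and regulatory T cells at 75.5 and 125 CPM. The T cell markers summed to 3414 and 4237 CPM, the CD8 genes to 671 and 1426 CPM, and *Cd8a* with the Ly49 genes to 1108 and 498 CPM. Their part in the results was not tested.

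The coreceptor genes belong to the rule, so their values describe the selected cells. In both groups a cell without *Cd8b1* UMIs could enter only through *Cd8a*. *Cd8a* was slightly lower in Ly49 cells, at 414 CPM (359 to 475), than in the others, at 498 CPM (478 to 519). *Cd8b1*, the CD8 beta chain, stood at 257 CPM (214 to 306) in Ly49 cells against 927 CPM (899 to 956), so that Ly49 cells held 0.621 *Cd8b1* UMIs per *Cd8a* UMI (0.493 to 0.779) and the others 1.86 (1.77 to 1.96). CD8 can be a dimer of alpha and beta chains or of alpha chains alone. No *Cd8b1* UMI was found in 61 of 111 Ly49 cells, or 55.0% (45.2 to 64.4), and in 121 of 1125 others, or 10.8% (9.01 to 12.7), although the Ly49 cells were sequenced more deeply. After thinning these shares were 79.8% (71.1 to 86.9) and 28.4% (25.6 to 31.2). By the Ly49 UMIs of the cell, the ratio was 0.988 (0.716 to 1.36) with 1, 0.429 (0.262 to 0.683) with 2 or 3 and 0.322 (0.181 to 0.548) with at least 4, the last 2 with intervals that overlapped.

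Against the other CD8 T cells, Ly49 cells had higher levels of *Id3*, *Ikzf2*, *Xcl1*, *Fcer1g*, *Cd7* and *Bcl2* and lower levels of granzymes, perforin, interferon gamma and inhibitory receptors. Of 4809 genes with at least 100 UMIs over both groups, 49 (1.02%) were at least 2-fold higher and 366 (7.61%) at least 2-fold lower. These are counts of ratios past a fold, with no test. The median ratio over all 4809 genes was 0.901. With 490304 UMIs in Ly49 cells and 4525853 in the others, a gene near the limit of 100 UMIs rests on few UMIs from Ly49 cells.

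**Figure D1:**
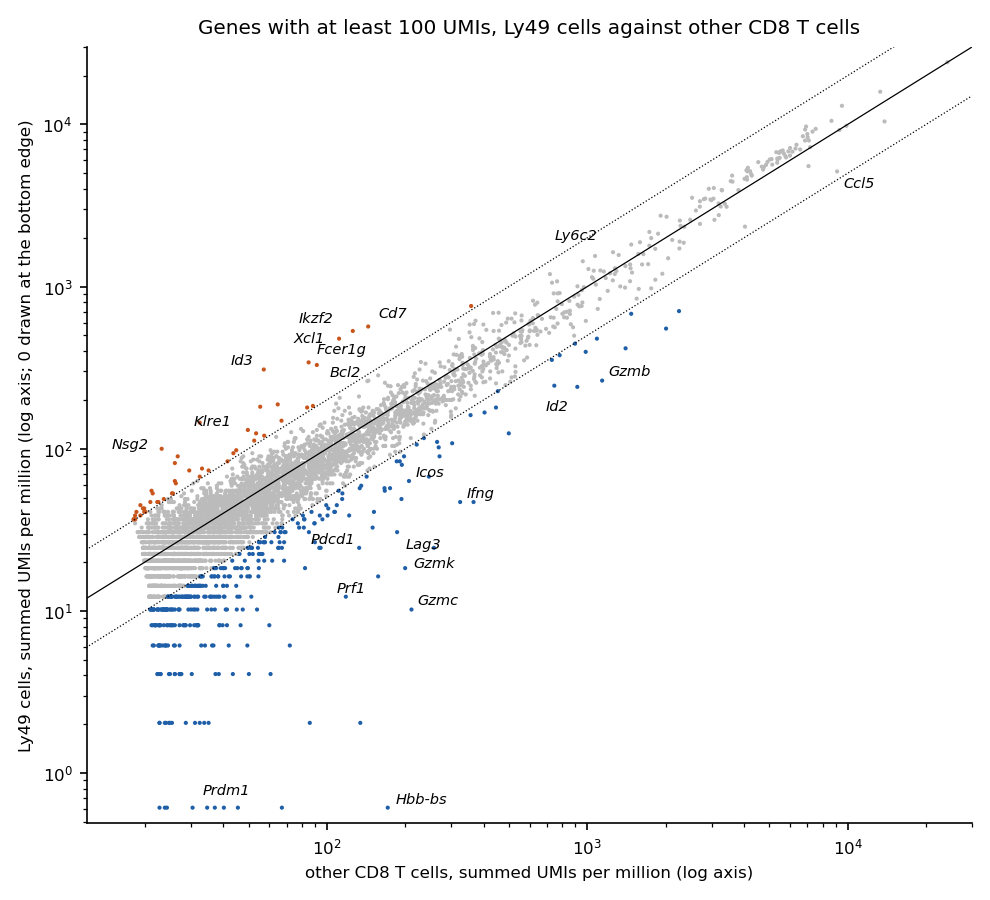
Level (CPM from summed UMIs) of each gene in the other CD8 T cells (x, log axis) and in Ly49 cells (y, log axis), for 4809 genes with at least 100 UMIs over both groups. The solid line marks equal levels and the dotted lines a 2-fold ratio; 49 genes in orange lie above and 366 in blue below, and genes at 0 UMIs in Ly49 cells are drawn at the bottom.

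*Ikzf2*, which encodes Helios, was seen in 88 of the Ly49 cells, with a median of 2 UMIs per cell and at most 10. Its level was 532 CPM (470 to 601) in Ly49 cells and 126 CPM (116 to 136) in the others, a ratio of 4.23 (3.64 to 4.91). No single cell carried this difference, since the highest cell held 3.83% of the UMIs. After thinning, 50.5% (40.7 to 60.2) of Ly49 cells and 14.9% (12.8 to 17.2) of the others had an *Ikzf2* UMI, and unthinned 79.3% and 26.3%. CD4-type cells, which include regulatory T cells that are known to express Helios, stood at 49.5% after thinning.

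*Id3*, an inhibitor of E-protein transcription factors kept on in naive and long-lived T cells, had the highest ratio of all genes tested, 5.38 (4.37 to 6.6), with 308 CPM against 57.2 CPM. It was seen in 46 Ly49 cells, 1 of which held 17.2% of the UMIs, and without that cell the ratio was 4.51. Its counterpart *Id2*, which goes with effector differentiation, was at 245 CPM (203 to 293) against 747 CPM (722 to 772), a ratio of 0.328. The survival factor *Bcl2* was 3.59-fold higher (2.97 to 4.32) and the kinase gene *Pim2* 2.90-fold (2.27 to 3.68).

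*Xcl1*, a chemokine that attracts cross-presenting dendritic cells, was found in 66 Ly49 cells and at 477 CPM (418 to 542) against 111 CPM (102 to 122). Thinned, 33.9% (25.1 to 43.6) of Ly49 cells had an *Xcl1* UMI, against 5.23% (3.95 to 6.77) of the others and 1.21% (0.888 to 1.61) of CD4-type cells. *Fcer1g*, an adaptor chain of Fc and NK receptors, was at 341 CPM (291 to 396) against 85.1 CPM (76.8 to 94.0). Its ratio of 4.0 (3.32 to 4.81) was 1.91 without an upper limit on detected genes and 9.89 without cells that had UMIs of *Lyz2*, *Spp1*, *Ighm*, *Hba-a1* or *Hbb-bs*, transcripts of other cell types. *Ighm* alone was found in 58 of the 111 Ly49 cells, with at most 4 UMIs each. The 9.89 thus rests on fewer Ly49 cells than were left out, and does not describe the whole group. *Cd7* was 3.94-fold higher (3.41 to 4.54) with a UMI in 73.9% of Ly49 cells and 26.2% of the others, or thinned in 45.9%, 16.5% and, in CD4-type cells, 6.03%.

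Among NK-type receptors, *Cd160* and *Klre1* were 3.27-fold (2.54 to 4.18) and 2.63-fold (1.96 to 3.48) higher, whereas *Klrc1*, which encodes the inhibitory receptor NKG2A, and *Klrg1* were lower at 0.439 and 0.462. *Klrd1*, the CD94 partner of NKG2 chains, had a ratio of 1.48 (1.28 to 1.70), and *Klrk1* (NKG2D) one of 0.905 (0.689 to 1.17). Of the 7 genes of this list with enough UMIs, 2 were at least 2-fold higher and 2 at least 2-fold lower, with a median ratio of 0.905. The list of Ly49 signalling genes had 8 such genes, of which 1, *Fcer1g*, was 2-fold higher, with a median of 1.26. *Ptpn6*, the gene of SHP-1, stood at 126 CPM (97.0 to 162) against 88.4 CPM (79.9 to 97.5), a ratio of 1.43. The genes of MHC class I, the ligands, and of its peptide loading were near the level of the other cells, with none of 11 past 2-fold and a median of 0.852.

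The virtual memory list gave a mixed picture. Of its 12 genes, 1 (*Bcl2*) was at least 2-fold higher and 1 (*Il18rap*, ratio 0.460) at least 2-fold lower, and the median was 0.948, beside 0.901 over all genes. *Il2rb* had 522 CPM (460 to 590) against 353 CPM (336 to 371), a ratio of 1.48. *Eomes* was at 69.3 CPM (48.0 to 96.9) against 53.9 CPM (47.4 to 61.1), and its ratio of 1.29 (0.871 to 1.85) held 1 within its interval. *Tbx21* (0.816), *Cd44* (0.964) and *Cxcr3* (0.933) also had intervals that held 1. *Ly6c2* had a ratio of 1.30 (1.20 to 1.40), and *Ccl5* and *Nkg7* were at 0.563 and 0.618. The list of genes reported for regulatory CD8 T cells had 6 genes with enough UMIs, with *Ikzf2* higher and *Fasl*, *Prf1* and *Icos* lower at 2-fold, and a median of 0.561. Within the quiescence gate described further on it had 3, with *Ikzf2* and *Il2rb* higher and *Icos* lower, and a median of 2.15.

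Of 14 naive and homing genes, 3 were 2-fold higher, among them *Nsg2* and *Bach2*, none 2-fold lower, and the median was 1.43. *Tcf7*, the gene of the stem-like factor TCF-1, was at 263 CPM (220 to 313) against 144 CPM (133 to 156).

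Genes induced through the TCR were mostly at lower levels. None of 11 antigen-signal genes was 2-fold higher and 4 were at least 2-fold lower, with a median of 0.605. Those 4 were *Icos* (0.306), *Tnfrsf9* (0.332), *Tnfrsf4* (0.343) and *Il2ra* (0.458). *Cd5*, whose level follows TCR signal strength in naive cells, was at 79.5 CPM (56.6 to 109) against 131 CPM (121 to 142), and the integrin gene *Itgb1* was at 0.519 (0.393 to 0.673). *Cd69* and *Nr4a1* did not share this direction, with ratios of 1.60 (1.41 to 1.81) and 0.957 (0.743 to 1.22).

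Most of the effector genes on the lists were at lower levels. Of 16 cytotoxic genes, 10 were at least 2-fold lower and none higher, with a median of 0.301. *Gzmb* was at 263 CPM (220 to 313) against 1140 CPM (1109 to 1171), and at 111 CPM (83.2 to 145) without the 2 highest of the 27 Ly49 cells that had it. Lower too were *Prf1*, at 16.3 CPM (7.04 to 32.1) against 157 CPM (146 to 169), and *Gzmk*, at 18.4 CPM (8.39 to 34.8) against 200 CPM (187 to 213). *Gzma* was found in 6 Ly49 cells, and 1 of them held 68.3% of its 218 UMIs, so that its ratio was 0.496, and 0.159 without that cell. All 6 genes of the terminal effector list were 2-fold lower, and *Prdm1*, the gene of Blimp-1, had 0 UMIs in Ly49 cells against 168. The exact upper limit of its ratio was 0.205, and with a floor of 3 counts put in place of 0 it was 6.07-fold lower. Of 10 genes of inhibitory receptors and exhaustion, 7 were 2-fold lower, among them *Pdcd1* (0.218, 0.124 to 0.356), *Lag3* (0.164) and *Havcr2* (0.0671, from 2 UMIs). The cytokine list held 1 higher gene (*Xcl1*) and 4 lower ones of 8, with *Ifng* at 46.9 CPM (29.7 to 70.4) against 325 CPM (308 to 342). In the cell cycle list 8 of 11 genes were 2-fold lower, and in the list of interferon-induced genes 1 of 10, *Rsad2*. *Cxcr4* was higher and *Cxcr6*, *Ccr2* and *Cx3cr1* lower among 8 chemokine receptors, and *Il4ra* was higher and *Il2ra* and *Il10ra* lower among 13 cytokine receptors.

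Levels were also followed over the number of Ly49 UMIs of a cell, as a description, since the rule uses the Ly49 genes and *Cd8b1*. Median depth rose over these classes, from 3367 UMIs with 0 Ly49 UMIs through 3768 with 1 and 4413 with 2 or 3 to 4575 with at least 4. *Ikzf2* stood at 126 CPM (116 to 136) with 0 Ly49 UMIs and at 426 (334 to 537), 535 (429 to 660) and 642 CPM (523 to 779) with 1, 2 or 3, and at least 4. *Gzmb* went the other way, from 1140 CPM through 586 (477 to 714) and 141 (89.7 to 212) to 44.1 CPM (17.7 to 90.8), and *Cd8b1* from 927 through 474 and 166 to 120 CPM. For *Cd8b1* the cells with 1 Ly49 UMI lay between those without and those with more, with intervals that did not overlap either neighbour's. For *Gzmb* their level rested on a pair of cells with 39 and 37 of the 99 UMIs, without which it was 148 CPM (93.5 to 221), close to that of cells with 2 or 3. For *Ikzf2*, and for *Xcl1* at 551 CPM (445 to 675) with 1 UMI and 491 (388 to 613) with at least 4, the intervals of the classes with Ly49 UMIs overlapped. *Pdcd1* had 0 UMIs in the 33 cells with at least 4 Ly49 UMIs.

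**Figure D2:**
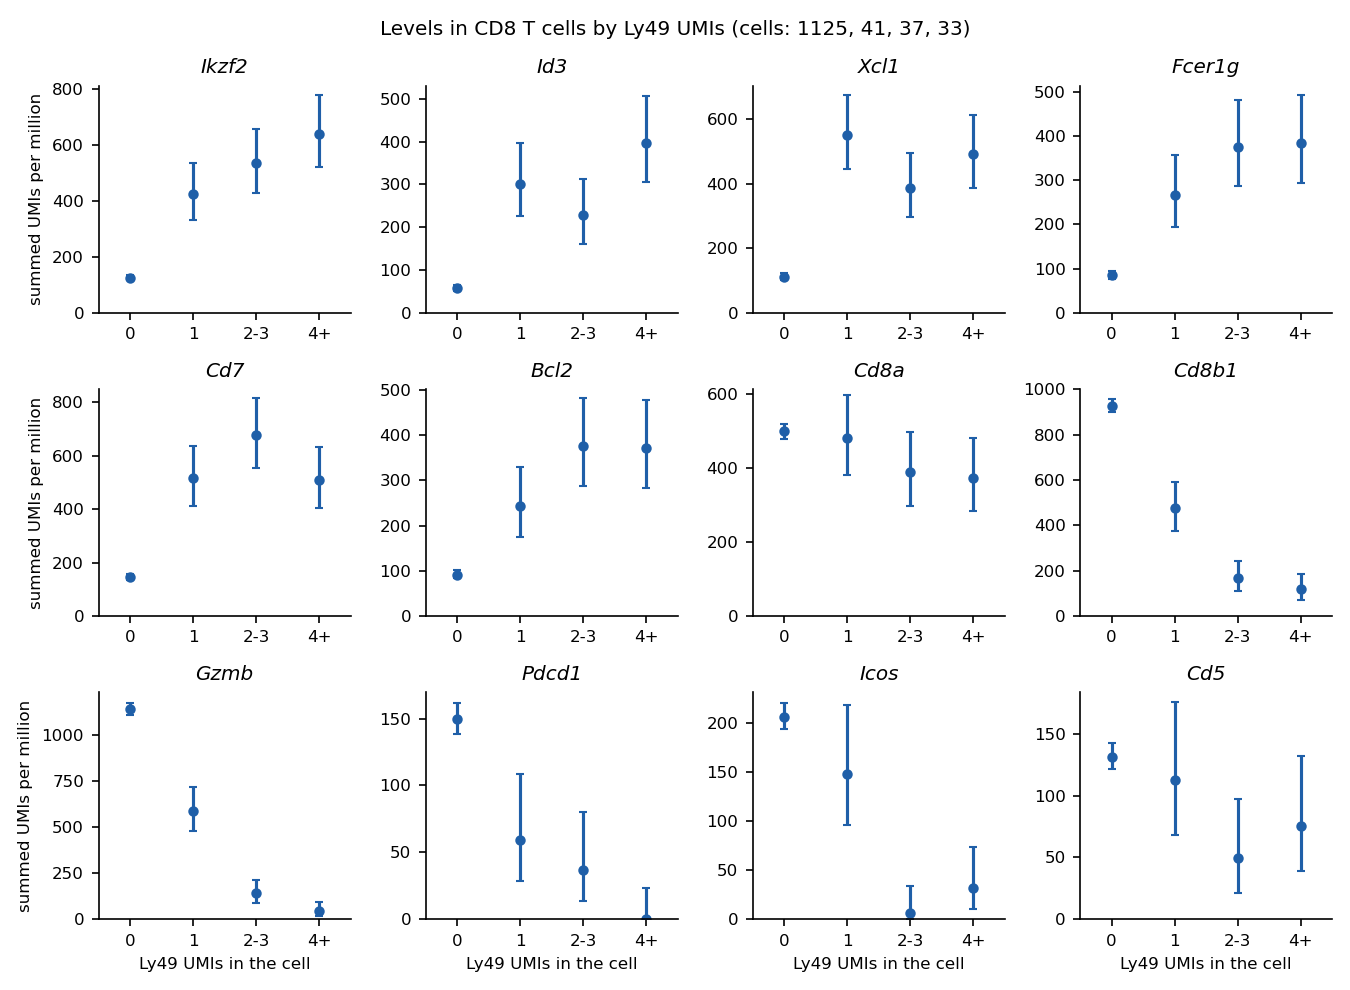
Level (y, CPM from summed UMIs) of 12 genes in CD8 T cells by the number of Ly49 UMIs in the cell (x: 0, 1, 2 or 3, at least 4; 1125, 41, 37 and 33 cells), with exact Poisson intervals at 95% as bars. *Ikzf2* goes from 126 to 642 CPM and *Gzmb* from 1140 to 44.1 CPM, while *Cd8a* ranges from 371 to 498 CPM.

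Cells with a single Ly49 gene differed from each other in some genes. Those with *Klra6* alone had 601 CPM of *Ikzf2* (421 to 832) and 584 CPM of *Fcer1g* (407 to 812). Beside the *Fcer1g* value, these cells had 350 CPM of *Lyz2* (217 to 536), 18 of its 21 UMIs in 1 cell, and 200 CPM of *Tyrobp* (103 to 350), whose part was not tested. Cells with *Klra1* alone had 469 CPM of *Ikzf2* (323 to 658) but 128 CPM of *Fcer1g* (58.5 to 243), with 28.4 CPM of *Lyz2* and 14.2 CPM of *Tyrobp*. Their *Xcl1* stood at 1065 CPM (838 to 1335), and at 543 CPM (378 to 755) without the 2 highest cells. Those with *Klra7* alone had 259 CPM of *Fcer1g* (188 to 347), overlapping the *Klra1* cells, with 5.88 CPM of *Lyz2* and 112 CPM of *Tyrobp*. *Gzmb* could not be compared between these groups, since 1 cell held 37 of the 54 UMIs of the *Klra1* cells and 1 cell 39 of the 52 of the *Klra7* cells. *Ikzf2* intervals overlapped among all of these. The groups hold 16, 18 and 35 cells.

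To compare cells that shared some transcripts of naive cells, a quiescence gate was set. It asked for 1 or more UMIs over a set of naive and homing genes that included *Ccr7* and *Lef1*, and 0 UMIs of *Gzmb* and *Pdcd1*. It held 60 of 111 Ly49 cells, 54.1% (44.3 to 63.6), and 205 of 1125 others, 18.2% (16 to 20.6), so that the shares lay 35.8 points apart (25.8 to 45.6). The gate depends on depth. With the gate read from thinned UMIs the shares were 35.8% (26.8 to 45.5) and 16.4% (14.2 to 18.8). With membership also called on thinned UMIs, which left 45 Ly49 cells, the difference was 11.8 points (-0.949 to 27.4) and its interval held 0. The gate did not make the groups alike. Within it the median depth was 4248.5 UMIs in Ly49 cells and 3320 in the others, and after thinning 93.3% and 56.5% had a *Ccl5* UMI.

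Within the gate, 10 of 1088 genes (0.919%) were at least 2-fold higher in Ly49 cells and 28 (2.57%) at least 2-fold lower. *Xcl1* (4.88, 3.67 to 6.52), *Ikzf2* (4.51, 3.45 to 5.91), *Fcer1g* (3.63, 2.66 to 4.95) and *Cd7* (3.13, 2.50 to 3.93) led. Next came *Ctla2a* (2.37), a protease inhibitor gene, *Klrd1* (2.26, 1.80 to 2.83), *Id3* (2.19, 1.62 to 2.95) and *Il2rb* (2.15, 1.71 to 2.71). Of 7 virtual memory genes with enough UMIs here, 1, *Il2rb*, passed 2-fold, *Bcl2* had a ratio of 2.0 (1.5 to 2.65) that fell just short of it, and the median was 1.55 beside 0.976 over all genes. After thinning, however, the share of gated cells with a *Bcl2* UMI was alike, at 23.3% (13.4 to 36.0) in Ly49 cells and 22.5% (16.8 to 29.1) in the others. *Ly6c2* and *Ctsw* were both at 1.55, and *Ccl5*, lower over all cells, was at 1.31 (1.22 to 1.41). The NK receptor genes *Klre1* (6.46, 3.32 to 13.2, from 30 and 14 UMIs), *Cd160* (3.73, 2.31 to 6.04) and *Klrk1* (2.74, 1.73 to 4.32) were under the limit of 100 UMIs.

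At the lower end within the gate stood *Gzma* (0.172, 8 and 140 UMIs), *Icos* (0.232, 0.0976 to 0.474), *Igfbp4* (0.292) and *Ly6a* (0.366), together with *Spp1*, *Ccl7* and *Ctsl*, transcripts of myeloid or tumor cells found in the other CD8 T cells. *Ccr7*, a gate gene, was at 85.3 CPM (53.4 to 129) in Ly49 cells and 239 CPM (206 to 276) in the others, and *Lef1* was at 140 CPM against 240 CPM. In the naive and homing list 1 of 8 genes was 2-fold lower, none higher, and the median was 0.768. *Tcf7* was at 0.839 (0.633 to 1.10). None of 11 MHC class I genes passed 2-fold within the gate.

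Outside the gate, 58 of 4130 genes (1.40%) were at least 2-fold higher and 430 (10.4%) at least 2-fold lower. *Id3* led at 7.69 (5.71 to 10.3), with 306 CPM in Ly49 cells, against 310 CPM in those within the gate. A single Ly49 cell held 26 of the 71 *Id3* UMIs outside the gate, so the 7.69 and the 306 CPM rest in part on it. In the other CD8 T cells *Id3* stood at 39.8 CPM outside and 141 CPM within the gate. *Bcl2* likewise was at 331 and 326 CPM in Ly49 cells, outside and within, and at 76.6 and 163 CPM in the others. *Tcf7* (2.39), *Satb1* (2.44) and *Actn1* (2.46) were 2-fold higher among 7 naive and homing genes outside the gate. Of 14 cytotoxic genes there 7 were 2-fold lower, with a median of 0.420, whereas within the gate 1 of 5 was, *Gzma*, and the median was 1.08. Outside the gate *Gzmb*, a gate gene, was at 555 CPM (464 to 660) against 1377 CPM. *Bcl2*, *Cd7*, *Fcer1g*, *Id3*, *Ikzf2* and *Xcl1* were among the 12 highest ratios both within and outside the gate.

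**Figure D3:**
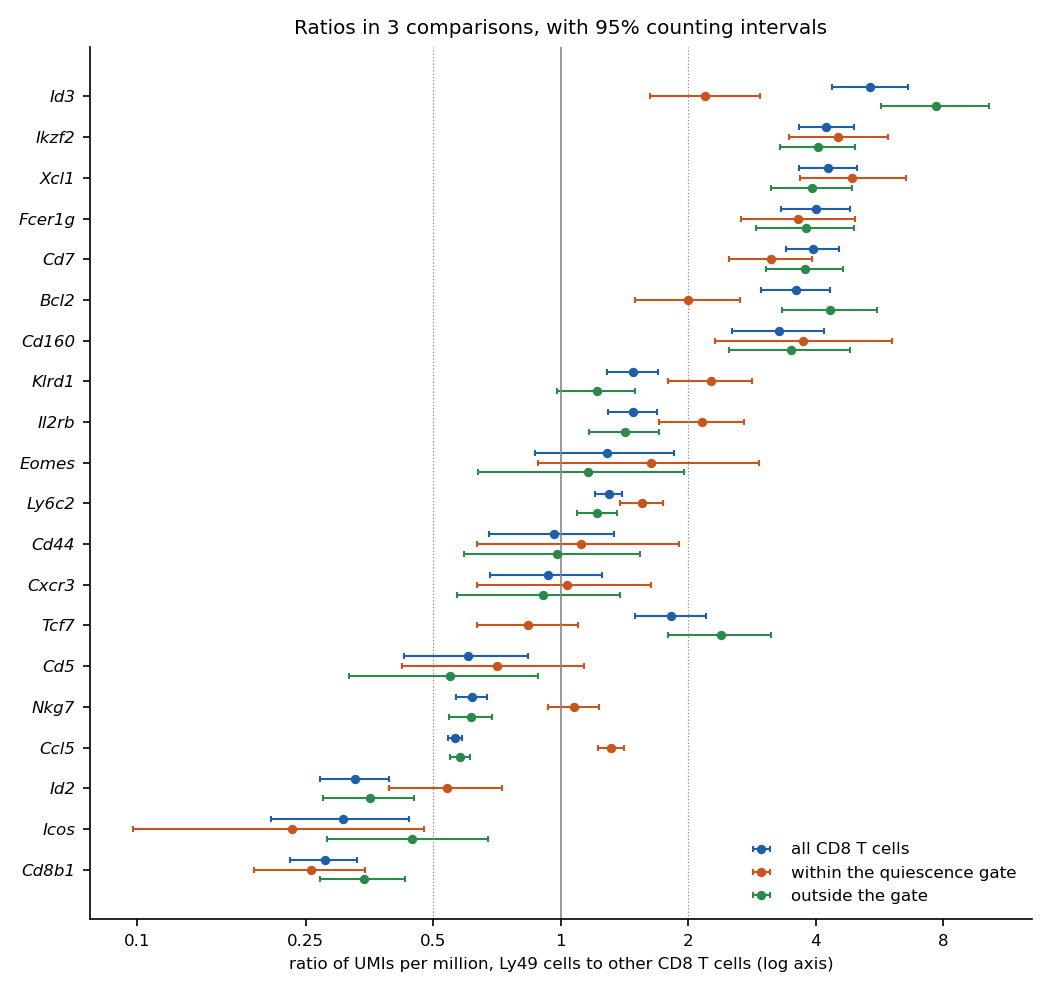
Ratio of CPM in Ly49 cells to that in other CD8 T cells (x, log axis) for 20 genes (y), over all CD8 T cells and within and outside the quiescence gate, with exact 95% counting intervals. *Ikzf2*, *Xcl1*, *Fcer1g*, *Cd7* and *Cd160* lie above 2 in all 3 comparisons, *Icos* and *Cd8b1* (a gene of the rule) below 0.5, and *Eomes*, *Cd44* and *Cxcr3* have intervals that hold 1.

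Splitting both groups by *Cd8b1* left part of these differences. Among cells with *Cd8b1* UMIs, *Ikzf2* was at 383 CPM (309 to 469) in Ly49 cells and 115 CPM (105 to 126) in the others. Among cells without, it was at 679 CPM (580 to 790) and 249 CPM (199 to 307). *Id3* was at 185 and 51.2 CPM with *Cd8b1* and at 429 and 129 CPM without. Leaving out the highest *Id3* cell of each group without *Cd8b1*, the latter were 332 CPM (263 to 413) and 107 CPM (75.4 to 148). *Fcer1g* in cells without *Cd8b1* was at 445 CPM (366 to 536) and 323 CPM (266 to 388), intervals that overlapped, with a ratio of 1.38 (1.05 to 1.81), beside 3.60 in cells with it. *Lyz2*, the lysozyme gene of myeloid cells, was at 20.2 CPM in Ly49 cells and at 300 CPM in the others without *Cd8b1*, where 1 cell held 102 of its 105 UMIs. Without the highest *Fcer1g* cell of each group, *Fcer1g* was at 410 CPM (333 to 498) and 211 CPM (165 to 266), intervals that lay apart. The 61 Ly49 cells without *Cd8b1* had 36.4 CPM of *Gzmb* (16.6 to 69.1) and 36.4 CPM of *Cd5* (16.6 to 69.1), against 494 CPM (409 to 590) and 123 CPM (83.3 to 176) in the 50 with it. Without the 2 highest cells, *Gzmb* in those 50 was at 191 CPM (139 to 257).

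**Figure D4:**
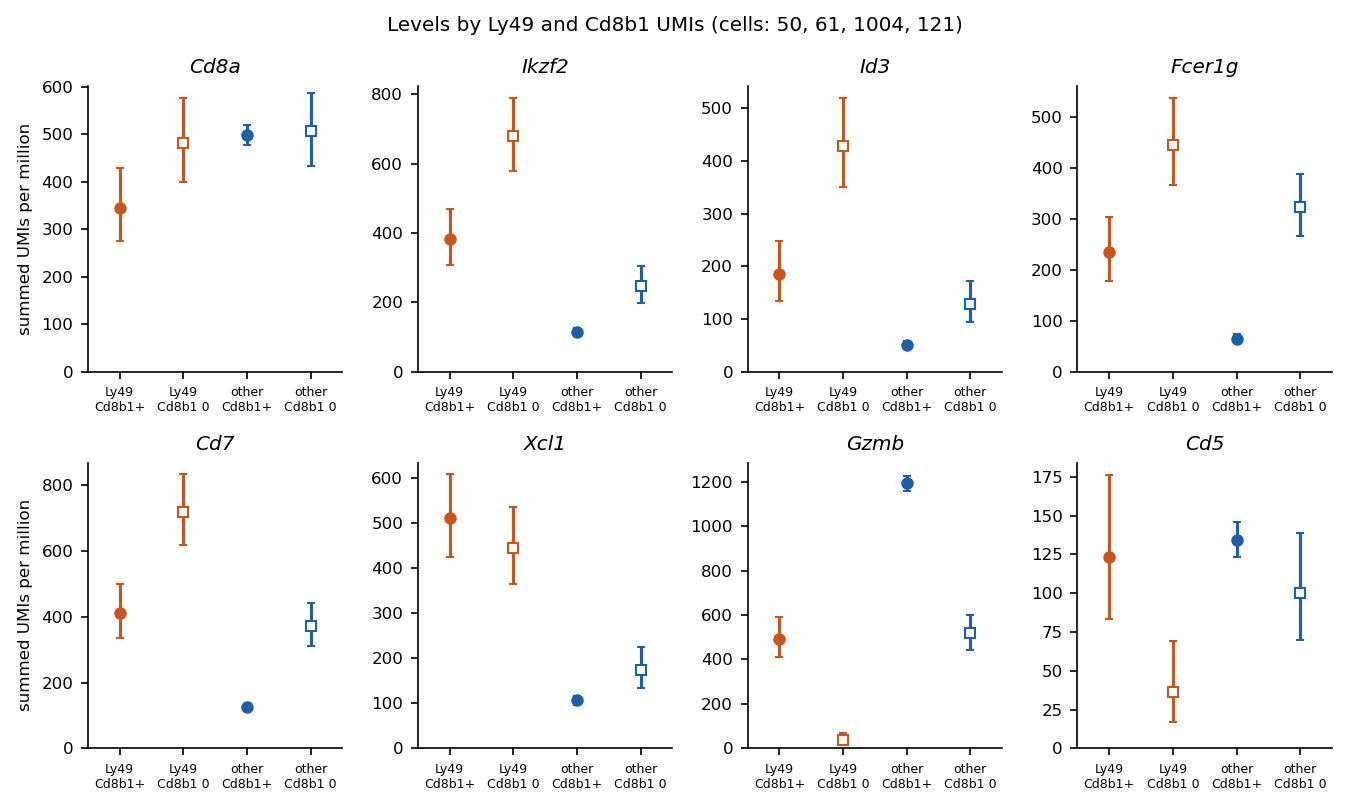
Level (y, CPM from summed UMIs) of 8 genes in Ly49 cells (orange) and other CD8 T cells (blue) with *Cd8b1* UMIs (filled circles) and without (open squares), 50, 61, 1004 and 121 cells, with exact Poisson intervals at 95%. *Ikzf2* and *Id3* are higher in Ly49 cells at either *Cd8b1* state, and *Gzmb* is at 36.4 CPM in Ly49 cells without *Cd8b1*.

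The TCR libraries set Ly49 cells apart in clone size. All 90 Ly49 cells with a clonotype had a clonotype of their own, so 0 of 90 were in an expanded clone (a clonotype of at least 2 CD8 T cells), where a floor of 3 counts is a share of 3.33% and the exact upper limit is 4.02%. Among 829 other CD8 T cells 200 were, or 24.1% (21.2 to 27.2). Within the gate the shares were 0 of 51 and 7 of 148 (4.73%, 1.92 to 9.50), a difference whose interval held 0 (-9.50 to 2.79 points). Outside it they were 0 of 39 and 193 of 681 (28.3%, 25 to 31.9), a difference of -28.3 points (-31.9 to -18.7). With clones called by the beta chain alone, 2 of 88 Ly49 cells shared a chain, with 3 and 1 of the other CD8 T cells, against 35.3% of the others.

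Transcripts of the TCR gamma constant genes were more frequent in Ly49 cells, although beta chains were recovered from these cells too. A UMI of *Tcrg-C1*, *Tcrg-C2* or *Tcrg-C4* was found in 24 Ly49 cells, 21.6% (14.4 to 30.4), and in 29 others, 2.58% (1.73 to 3.68), and after thinning in 12.8% (7.20 to 20.6) and 1.55% (0.888 to 2.50). A productive beta chain was found in 19 of the 24 and 22 of the 29. *Tcrg-C1* and *Tcrg-C2* share 11.1% and 2.55% of their 90-base words with other gamma constant genes, so their split is uncertain, and they were therefore pooled.

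**Figure D5:**
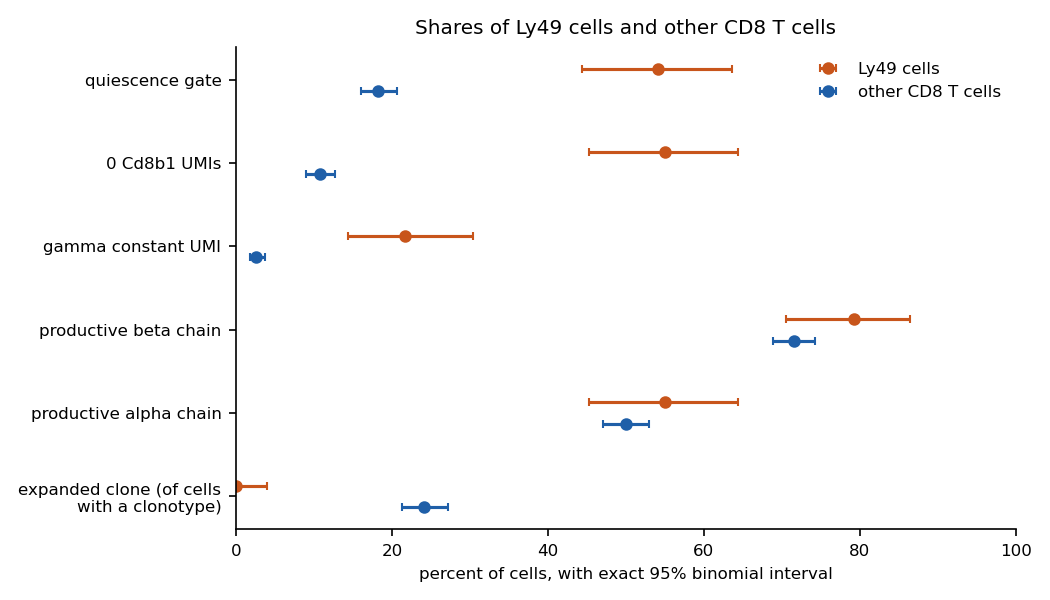
Share of cells (x, percent) within the quiescence gate, with 0 *Cd8b1* UMIs, with a gamma constant UMI, with a productive beta or alpha chain and in an expanded clone, for Ly49 cells (orange) and other CD8 T cells (blue), with exact binomial intervals at 95%. The intervals lie apart for the gate, *Cd8b1* (a gene of the rule), the gamma constant genes and expanded clones, and overlap for both TCR chains.

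Among 24 V and J segments found in at least 5 Ly49 cells or 10% of the others, TRAJ45 was used by 5 of 61 Ly49 cells with an alpha chain (8.20%, 2.72 to 18.1) and 3 of 563 others (0.533%, 0.110 to 1.55), and TRAJ23 by 7 (11.5%, 4.74 to 22.2) and 14 (2.49%, 1.37 to 4.14). TRBV12-2 was used by 15 of 88 (17.0%, 9.87 to 26.6) and 53 of 805 (6.58%, 4.97 to 8.52). *Trbv12-2* transcripts, at 163 CPM and 78.4 CPM, were among the 10 genes 2-fold higher within the gate. They come from the receptors of the same cells, so they give no separate support. The intervals of the shares were not adjusted for the 24 comparisons. TRAJ45, TRAJ23 and TRBV12-2 were each in under 10% of the others, so they entered the comparison only through the Ly49 cells. That filter favours segments with a higher share in Ly49 cells, so these shares are a description. TRAJ7, at 4.92% of Ly49 cells, was at 18.5% of the others, a group that holds expanded clones. The TRAJ45 junctions (CDR3) of the 5 Ly49 cells follow, 5′ to 3′, with capitals for the bases all 5 share at the J end, to show that the cells share the segment and not a clone.

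TRAV10: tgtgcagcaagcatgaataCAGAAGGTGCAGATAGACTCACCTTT
TRAV14-3: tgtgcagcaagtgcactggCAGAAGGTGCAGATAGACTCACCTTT
TRAV9D-3: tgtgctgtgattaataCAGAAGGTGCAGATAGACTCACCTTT
TRAV12-2: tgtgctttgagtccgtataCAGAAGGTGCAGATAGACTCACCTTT
TRAV12D-2: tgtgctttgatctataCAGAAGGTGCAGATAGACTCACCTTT

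Each of the 5 had another V segment and another stretch before the shared 26 bases. CDR3 length did not set Ly49 cells apart, at 14.1 ± 1.33 codons in 97 beta chains (SD over chains) against 14.0 ± 1.36 in 881, and 13.8 ± 1.11 against 13.6 ± 1.30 in alpha chains.

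Few cells could be placed in a tumor, since a tag UMI was found in few barcodes. A cell was placed where all its tag UMIs, at least 1, came from the tags of 1 tumor. Of 7 placed Ly49 cells, 5 were among 103 CD8 T cells of B16 tumors, 4.85% (1.59 to 11.0), and 2 among 19 of B16–IL-33 tumors, 10.5% (1.30 to 33.1). The difference of 5.67 percentage points had an interval of -5.39 to 28.5, so a difference between the tumors was not detectable at this depth.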

How the data were processed

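The authors deposited raw counts of UMIs per gene, per hashtag and per TCR contig for 1 pool, without normalization or cell filters. The gene expression header names Cell Ranger 3.1.0 and the submitters' processing notes Cell Ranger 6.1.1 and mm10. The TCR and hashtag tools are not given in the sources used here. Barcodes with 200 to 2500 detected mouse genes and under 5% mitochondrial UMIs were kept. UMIs were summed per group as CPM of mouse UMIs. Ratios have exact conditional intervals, CPM exact Poisson, shares Clopper-Pearson and differences of shares square-and-add intervals. Thinning to 1500 UMIs used 1 seeded draw. Genes needed 100 UMIs over both groups, and genes of the rule, and in the gated comparisons those of the gate, were left out of counts. Besides the 16 gene lists and 11 marker lists, the 12 highest and 12 lowest ratios per comparison could be named. One gene of the quiescence gate and of the naive and homing list is not reported here. Members, lists and the tumor rule were chosen with earlier results of these data known. No doublet caller was run, and cells with at least 2 productive beta chains (10.0% of Ly49 cells and 9.17% of the others with a clonotype) were left out as an alternative. Depth was 490304 UMIs in Ly49 cells and 4525853 in the others. Calculations used Python 3.11.15, NumPy 2.4.6, SciPy 1.17.1 and pandas 2.3.3, and were tested on simulated data. Expression in other libraries of the study was not analysed here.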

Additional observations from a re-analysis of the deposited data

Results flagged for a closer look

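UMIs on human genes, which the comparisons did not use, were found in the Ly49 cells. The combined reference assigned 55 UMIs in 41 of the 111 cells to human genes, 0.0112% of their UMIs (0.00845 to 0.0146), beside 0.0134% (0.0123 to 0.0145) in the other CD8 T cells. It stood out because the pool came from mice and the number exceeds the floor of 3 UMIs.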

How the results depend on the processing

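The 28 genes followed were a hand-set list that held several of the highest ratios in these data and *Cd8b1*, a gene of the rule. Over all CD8 T cells 18 of them, *Cd8b1* included, were at 2-fold or more. The alternatives mostly reuse the same cells, so they show dependence on the settings and give no independent support. The ratios of these 18 genes kept their direction in all 197 values under 11 alternatives, and 192 stayed past 2-fold. The exceptions were *Fcer1g* without an upper limit on detected genes (1.91) and without *Cd8b1* (1.38), *Cd7* without *Cd8b1* (1.94), and *Icos* and *Cd8b1* with *Cd8b1* (0.533 and 0.516). The splits by *Cd8b1*, the removal of cells with transcripts of other cell types and of the highest cells, and the NK sum without *Gzma* were chosen after seeing the data. Counts of genes at 2-fold or more moved by over 1.5 times with the genes or cells that entered. Without an upper limit they were 111 higher and 555 lower over all cells and 133 and 673 outside the gate. Thinned, with fewer genes reaching 100 UMIs, they were 18 and 159 over all, 4 and 8 within and 20 and 202 outside. With a minimum of 20 UMIs they were 377 and 1289, 153 and 377, and 471 and 1508. With at least 2 Ly49 UMIs 653 genes outside the gate were lower, and in cells without *Cd8b1* 4 of 655 were higher and 31 lower. The share of Ly49 cells was 5.86% with at least 2 Ly49 UMIs and 4.69% with membership on thinned UMIs, where the gate difference was 11.8 points. The difference in expanded clones was -33.0 points by the beta chain and -11.8 points from 3 cells. The remaining 57 of 81 counts and shares stayed within 1.5 times the count or within the interval. With 1 pool, replicate error is unknown, and 41 of 111 Ly49 cells rest on 1 UMI.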

Other observations

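Ly49 transcripts were not confined to CD8 T cells. Of 2576 T cells with CD3 UMIs but 0 UMIs of *Cd8a*, *Cd8b1*, *Cd4* and *Foxp3*, 118 had a Ly49 UMI, 4.58% (3.81 to 5.46), and 4.56% after thinning. These 118 cells had 461 CPM of *Xcl1*, 444 CPM of *Ikzf2*, 515 CPM of *Cd7* and 171 CPM of *Id3*, against 28.5, 319, 77.9 and 43.5 CPM in the 2458 without a Ly49 UMI. *Klra1* led in them at 407 CPM, whereas *Klra7* led in the CD8 T cells. *Klrb1c*, the NK1.1 gene, was at 137 CPM, against 28.6 CPM in the Ly49 CD8 T cells. Their median depth was 2619 UMIs.

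The 47 CD4-type cells with a Ly49 UMI had 263 CPM of *Xcl1* and 1480 CPM of *Ly6c2*, against 8.46 and 88.1 CPM in the 4471 CD4-type cells without one, and 201 CPM of *Foxp3* against 461 CPM. Of 612 cells without CD3 UMIs, 12 had a Ly49 UMI, with 2430 CPM of *Tyrobp* and 2144 CPM of *Fcer1g*.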
